A study of Homo sapiens with 9 samples.

Results

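Fatty acid activation and oxidation genes encode the enzymes that attach long fatty acids to coenzyme A, carry them into mitochondria or peroxisomes and shorten them 2 carbons at a time, together with the receptors and a coactivator that control their transcription. The 34 genes were taken as a list fixed by name, which was chosen with earlier results of these data known. Counts of the list set beside the shares of all genes are therefore a description. Where a gene had several probe sets the brightest on average was used. Of the 34, 33 had a probe set among the 11963 genes of the array that could be named, ACSL3 being the exception. A total of 20 reached a log2 value of 4 on at least 3 of the 9 arrays and were tested. The other 13 were below log2 4 on more than 6 arrays and are described apart. Nearest to this limit were ACSL1 (3 arrays at or above log2 4) and PPARD (7) inside it and EHHADH (2) outside it.

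The measurements came from HK-2, an immortalised line derived from human proximal tubule epithelium, on a 1-colour Affymetrix array. The 3 groups of 3 arrays were untreated cells at 0 h, cells given TGFβ1 (labelled TGFb1) for 24 h and cells given it for 48 h. The series title names the question as epithelial to mesenchymal transition driven by this cytokine. All cells were kept in the same medium with EGF, hydrocortisone, triiodothyronine and insulin, transferrin and selenium. There were 3 runs, on separate days and from successive passages, and each array holds the pooled plates of 1 time point of 1 run, so replicates are runs of 1 line. The design text calls the control vehicle whereas the sample labels call it untreated. Cells kept untreated for 24 h or 48 h were not analysed here, so TGFβ1 and time in culture cannot be told apart, and the labels give no dose.

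In the kidney, proximal tubule cells rely on fatty acid oxidation for much of their ATP. Acyl-CoA synthetases activate the fatty acid. CPT1A, SLC25A20 and CPT2 then move it across the mitochondrial membranes as carnitine esters. Inside, acyl-CoA dehydrogenases, hydratases, hydroxyacyl-CoA dehydrogenases and thiolases act in turn, and electrons leave through ETFA, ETFB and ETFDH. Peroxisomes shorten very long and branched chains with their own enzymes, and PPAR receptors with the coactivator PPARGC1A switch on many of the genes.

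Differences were tested on the log2 values with limma, with the run as a block so that time points were compared within runs, and p-values were adjusted by Benjamini-Hochberg over the 4368 genes that passed the same filter, with a threshold of 0.05. Adjusted p-values below come from this fit unless the fit without the block is named. Array medians lay between 2.2 and 2.23, so values near 2 cannot be told from background. PMEPA1, a target of TGF-beta signalling, was 2.54, 2.17 and 2.58 on the untreated arrays, 5.13, 4.92 and 5.31 at 24 h and 4.87, 4.97 and 4.87 at 48 h (log2 values of runs 1 to 3), a rise of 2.69 at 24 h (adjusted p = 1.35e-05). PMEPA1 reached log2 4 on its 6 treated arrays alone, so it entered the test through the groups in which it was high. Its untreated values were near background, so the size of its rise is not resolved. TGFBI, another target, was above log2 4 on all 9 arrays and rose by 2.59 at 24 h (adjusted p = 1.35e-05). Of the 12 proximal tubule markers with a probe set, PAX8 and CDH6 passed the filter, while LRP2, CUBN, AQP1, SLC34A1, SLC5A2, SLC22A6, SLC22A8 and ANPEP were near background with group means of 1.36 to 2.18. Of 6 epithelial markers EPCAM, KRT8, KRT18 and KRT19 passed and CDH1 did not. None of 5 endothelial or 4 leukocyte markers and 1 of 8 fibroblast markers (LUM) passed. PAX8 and EPCAM fell at both times, as did SCNN1A, a sodium channel subunit of the distal nephron. PAX8, CDH6 and SCNN1A were read from the brightest of 8, 5 and 3 probe sets, and the others are not described here. SCNN1A reached log2 4 on its 3 untreated arrays alone, so it entered the test through the group in which it was high. KRT8 rose at 24 h and CDH6 at 48 h, calls that were lost without the block (adjusted p = 0.064 and 0.103). The summed log2 level of the proximal tubule list ranged from 31.6 to 34.6 in untreated cells, 33.2 to 33.6 at 24 h and 33.1 to 34.8 at 48 h, and that of the fibroblast list from 17.9 to 19.5, 18.5 to 20.7 and 19.1 to 20.2. The distal nephron list, in which only SCNN1A passed the filter, ranged from 11.6 to 12.4, 7.8 to 9.6 and 8.3 to 9.2. Most genes in these lists were below the filter. In the proximal tubule sum PAX8 (−0.60 and −0.81 at 24 h and 48 h) and CDH6 (0.75 and 1.33) had opposite signs. The part of these markers in the results below was not tested, and in such bulk samples fewer cells of a type and less RNA per cell cannot be told apart.

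After 24 h of TGFβ1, 4 of the 20 tested genes fell and 0 rose. They were ACSL1 and ACSL4, which activate fatty acids, ECH1, which handles double bonds, and HSD17B4, a peroxisomal enzyme. At an unadjusted p under 0.05, in either direction, 7 of the 20 differed at 24 h and 27.7% of all genes, and 3 of the 20 at 48 h and 22.9% of all genes. Without the block these were 3 of the 20 and 16% at 24 h, and 2 of the 20 and 13.9% at 48 h. Over all 4368 genes 5.52% were called lower and 5.95% higher at 24 h. After 48 h, ACSL1 and ECH1 were below untreated cells and 0 genes were above, against 4.81% lower and 5.22% higher over all genes. Without the run as a block only ACSL1 fell at either time, against 2.17% of all genes lower at 24 h and 2.17% at 48 h. ACSL1 was at or above log2 4 on the 3 untreated arrays and on no treated array. It therefore entered the test through the group in which it was high, and its place among the calls is a description rather than support for a direction of the list. The median log2 difference of the 20 genes was −0.08 at 24 h and −0.13 at 48 h, beside 0.015 and 0.023 over all tested genes.

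**Figure D1:**
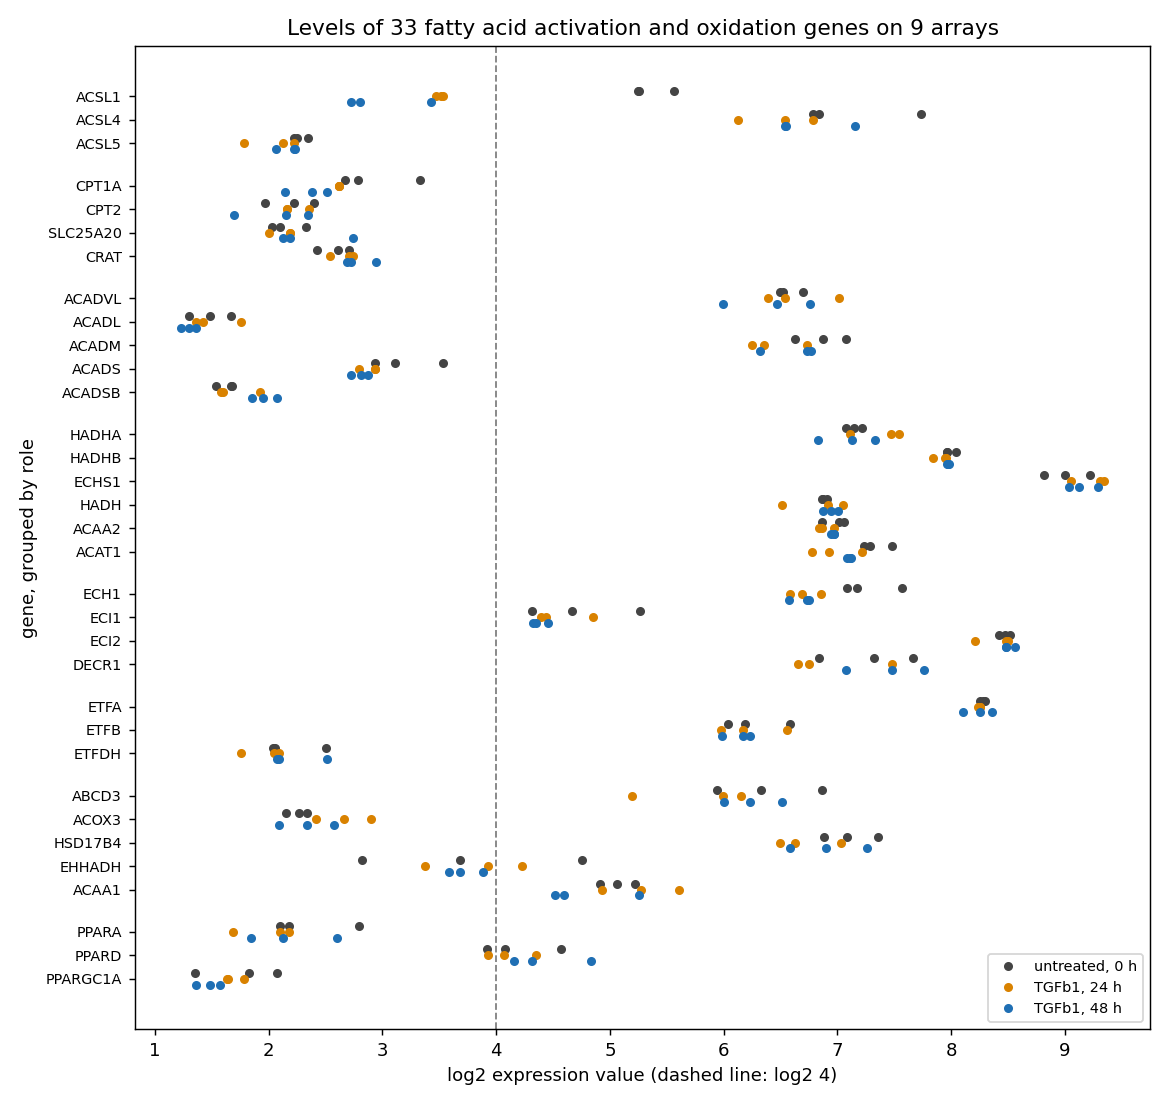
Log2 expression value (x axis) of the 33 genes with a probe set, grouped by role (y axis), with 1 point per array: dark for untreated, orange for 24 h and blue for 48 h of TGFb1. The dashed line marks log2 4. The 4 genes of the carnitine shuttle lie left of the line on every array, and ACSL1 crosses it from 5.25 or more in untreated cells to 3.53 or less in treated cells.

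The promoter of each gene that fell and had a sequence in the RefSeq promoter table (GRCh38.p14) is shown, with that of HADHB as a gene whose differences did not pass the threshold. Each is the stretch of 250 bases before the annotated start, in the direction of the gene, and capitals mark GGGCGG or its reverse complement CCGCCC, the GC box. ACSL1 has several start sites in the table and the farthest upstream is printed. ECH1, which also fell, has no sequence there and is outside the counts below.
ACSL1, chr4:184825969-184826218, minus strand: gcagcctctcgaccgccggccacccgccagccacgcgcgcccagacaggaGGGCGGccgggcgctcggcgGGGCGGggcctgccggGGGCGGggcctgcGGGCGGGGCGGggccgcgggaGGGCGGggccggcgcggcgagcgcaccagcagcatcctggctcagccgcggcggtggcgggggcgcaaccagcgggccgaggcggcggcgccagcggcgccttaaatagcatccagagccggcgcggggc
ACSL4, chrX:109733258-109733507, minus strand: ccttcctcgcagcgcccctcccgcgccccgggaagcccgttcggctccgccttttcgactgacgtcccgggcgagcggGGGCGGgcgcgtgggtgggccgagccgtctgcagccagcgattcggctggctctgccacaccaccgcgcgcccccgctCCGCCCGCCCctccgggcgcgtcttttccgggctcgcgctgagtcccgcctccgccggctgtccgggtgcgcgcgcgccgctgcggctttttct
HSD17B4, chr5:119452247-119452496, plus strand: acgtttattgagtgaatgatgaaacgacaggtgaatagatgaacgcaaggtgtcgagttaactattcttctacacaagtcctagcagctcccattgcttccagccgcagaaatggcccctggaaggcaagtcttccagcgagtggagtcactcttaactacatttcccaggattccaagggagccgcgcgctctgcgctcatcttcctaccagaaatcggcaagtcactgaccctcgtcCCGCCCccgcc
HADHB, chr2:26244689-26244938, plus strand: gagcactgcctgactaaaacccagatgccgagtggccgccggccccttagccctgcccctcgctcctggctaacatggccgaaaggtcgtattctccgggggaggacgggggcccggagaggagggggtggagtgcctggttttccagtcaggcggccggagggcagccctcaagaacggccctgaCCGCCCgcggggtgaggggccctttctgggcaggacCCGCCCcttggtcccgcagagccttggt

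The ACSL1 stretch had a GC content of 83.6% and held 6 GC boxes, some overlapping. ACSL4 had 77.2% with 3, HSD17B4 52.8% with 1 and HADHB 69.2% with 2. The HADHB stretch lies wholly between the annotated starts of HADHA and HADHB, which run in opposite directions with 306 bases between them. The table held 41 such windows for 28 of the 34 genes, 10 genes having more than 1. The GC box, searched on both strands, was in 28 of the 41 windows (68.3%) and in 42.6% of all 35116 windows of the table. The median GC content was 67.2% in the 41 windows and 58% in all. The letters AGGTCA (or TGACCT), the core element bound by PPAR and RXR receptors, were in 1 of the 41 windows (ACSL5, 2.44%) and in 12.1% of all. A direct repeat, 2 copies of AGGTCA with 1 base between them, which also counts under AGGTCA, was in 0 of the 41 and in 0.0171% of all windows. CAGGTG (or CACCTG), an E-box bound by SNAI2 and related repressors, was in 10 of the 41 windows (24.4%, 8 genes) and in 17.5% of all. The HSD17B4 stretch printed above holds 1, whereas the printed ACSL1 stretch holds 0 and those of ACSL1 lie in windows of 2 other start sites. The search covers these letters in these windows and says nothing of binding.

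Both tested activation genes fell at 24 h, and ACSL1 had the largest difference of the 20 genes at both times. ACSL1, a long-chain acyl-CoA synthetase, was 5.25, 5.25 and 5.56 on the untreated arrays of runs 1, 2 and 3, then 3.52, 3.53 and 3.47 at 24 h, and 2.81, 2.72 and 3.43 at 48 h. All 6 treated arrays lay below all 3 untreated ones. The log2 difference was −1.85 ± 0.154 (standard error, SE) at 24 h, 3.6-fold lower (adjusted p = 0.000231), and −2.37 at 48 h with the same SE, 5.17-fold lower (adjusted p = 5.6e-05). All treated values were below log2 4, from 3.47 to 3.53 at 24 h and 2.72 to 3.43 at 48 h, beside array medians of 2.2 to 2.23. The folds are those of the measured values, and the size of the fall is not resolved below log2 4. From 24 h to 48 h the runs differed by −0.71, −0.81 and −0.04, a mean of −0.52 that was not past the threshold (adjusted p = 0.227). A second, dim ACSL1 probe set had means of 2.28, 1.66 and 1.55 at 0, 24 and 48 h and was not tested. ACSL1 stayed past the threshold in all alternatives that could test it. With the mean of all probe sets per gene it fell below the filter and was not tested.

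ACSL4, a synthetase with a preference for arachidonic acid, was 6.84, 6.78 and 7.73 in untreated cells, 6.54, 6.12 and 6.78 at 24 h, and 6.54, 6.55 and 7.15 at 48 h. Run 3 was the highest at each time and the groups overlapped or touched, but within each run the 24 h array was the lower. The difference at 24 h was −0.63 ± 0.141 (adjusted p = 0.0236). At 48 h it was −0.37 and did not pass (adjusted p = 0.16). Without the block the 24 h call was lost (adjusted p = 0.33). It was also lost without the untreated or 24 h array of run 2 or of run 3, with adjusted p from 0.0616 to 0.115. Leaving out the whole of run 2 or of run 3, or comparing only the 2 groups, lost the call too. ACSL5 stayed between 1.79 and 2.35 on all arrays, near background.

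**Figure D2:**
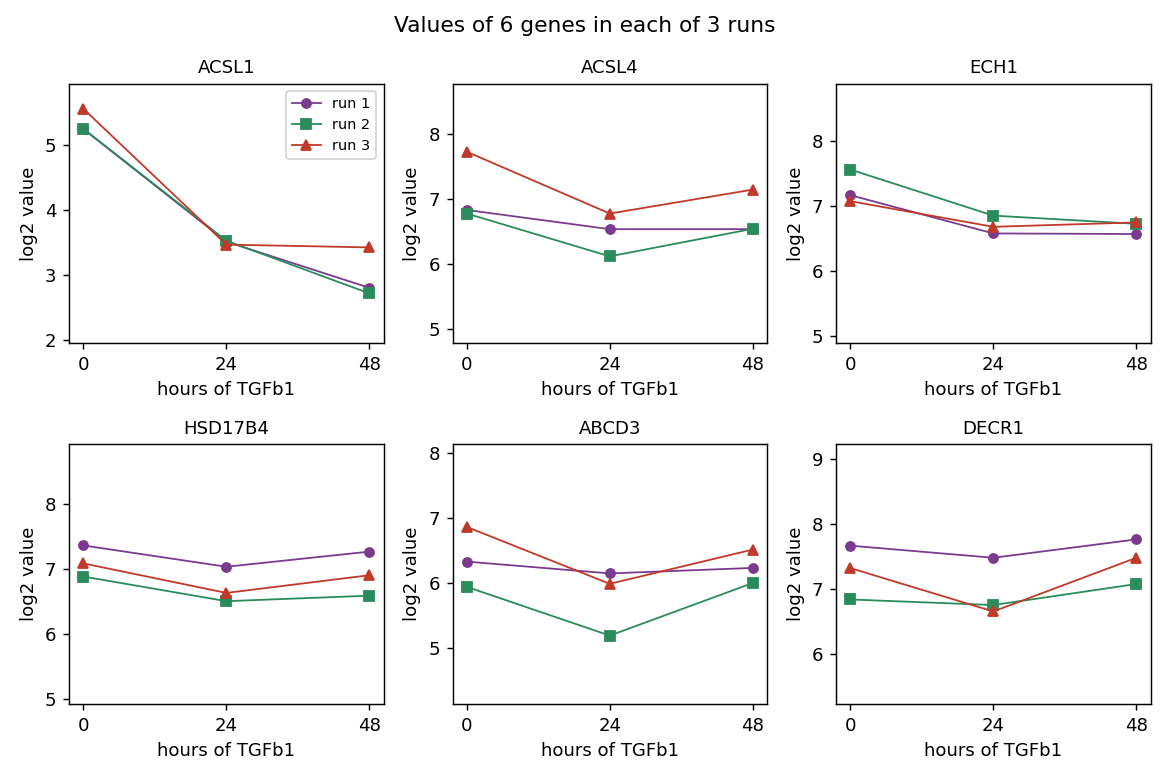
Log2 value (y axis, each panel spanning 4 units) against hours of TGFb1 (x axis) for 6 genes, with 1 line per run. ACSL1 drops in every run. ACSL4, HSD17B4 and ABCD3 dip at 24 h by 0.63, 0.39 and 0.60 on average, less than the distance between the highest and lowest untreated array, and DECR1 lies below its untreated value at 24 h and above it at 48 h in every run.

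The carnitine shuttle could not be assessed. CPT1A, the rate-limiting acyltransferase of the outer mitochondrial membrane, ranged from 2.14 to 3.33 over the 9 arrays. Its means at 0, 24 and 48 h were 2.93, 2.62 and 2.35. CPT2, its counterpart in the inner membrane, ranged from 1.70 to 2.40, the carnitine-acylcarnitine carrier SLC25A20 from 2.00 to 2.74 and the carnitine acetyltransferase CRAT from 2.42 to 2.94. All 4 were below the filter on all arrays. With every one of the 11963 genes tested, CPT1A had the smallest adjusted p among the 13 genes counted apart, at 48 h (−0.59 ± 0.154, adjusted p = 0.0803), and 0 of the 13 passed. Of the 11963 genes, 572 passed at 24 h, 470 at 48 h and 0 between 24 h and 48 h in that fit. With so small a share called, 0 of 13 says nothing particular of these genes.

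Of the acyl-CoA dehydrogenases, which take the first oxidation step, 2 of 5 were tested and 0 passed. ACADM, the medium-chain enzyme, was 6.62, 7.08 and 6.88 in untreated cells, 6.73, 6.35 and 6.25 at 24 h, and 6.77, 6.74 and 6.32 at 48 h. It was lower at 24 h in runs 2 and 3 and higher in run 1, with a difference of −0.42 ± 0.173 (adjusted p = 0.162). ACADVL, the very-long-chain enzyme, had differences of 0.07 ± 0.148 at 24 h (adjusted p = 0.796) and −0.17 at 48 h (adjusted p = 0.565). ACADS (2.73 to 3.54), ACADL (1.23 to 1.75) and ACADSB (1.54 to 2.07) were below the filter.

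All 6 genes of the hydratase, dehydrogenase and thiolase steps were tested and none passed at either time. HADHA and HADHB encode the subunits of the mitochondrial trifunctional protein. HADHB was 7.97, 8.04 and 7.97 in untreated cells and between 7.84 and 7.96 at 24 h and 7.97 and 7.98 at 48 h. Its difference was −0.08 ± 0.102 at 24 h, with a 95% interval of −0.31 to 0.16, and −0.02 at 48 h, with an interval of −0.25 to 0.22. HADHA had a difference of 0.23 ± 0.118 at 24 h (adjusted p = 0.258) and had −0.05 at 48 h (adjusted p = 0.866). Its 2 other probe sets, tested when every probe set was entered, had 0.13 and 0.14 at 24 h and 0.35 and 0.035 at 48 h (adjusted p = 0.215 and 0.915) and did not pass, so the probe sets differed in sign at 48 h.

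ACAT1, the acetoacetyl-CoA thiolase, had the smallest p of these 6 in the F test over the 3 times. It was 7.29, 7.24 and 7.48 in untreated cells, 7.22, 6.78 and 6.93 at 24 h, and 7.11, 7.09 and 7.12 at 48 h. Every treated array lay below every untreated one, narrowly for run 1 at 24 h, and the difference of −0.36 ± 0.127 at 24 h did not pass (adjusted p = 0.11), nor did −0.23 at 48 h (adjusted p = 0.344). ECHS1, the short-chain hydratase, had 0.23 ± 0.119 at 24 h (adjusted p = 0.261), HADH, the short-chain hydroxyacyl dehydrogenase, −0.06 ± 0.141 (adjusted p = 0.833), and ACAA2, a thiolase, −0.09 ± 0.108 (adjusted p = 0.646).

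Auxiliary enzymes prepare unsaturated fatty acids for the cycle. ECH1, a dienoyl-CoA isomerase, was 7.17, 7.57 and 7.08 in untreated cells, 6.58, 6.86 and 6.69 at 24 h, and 6.57, 6.73 and 6.75 at 48 h. The treated arrays all lay below the untreated ones. The difference was −0.56 ± 0.122 at 24 h, 1.48-fold lower (adjusted p = 0.0212), and −0.59 at 48 h, 1.5-fold lower (adjusted p = 0.0191). Without the block neither passed (adjusted p = 0.0907 and 0.0772). The 24 h call was lost without the untreated or 24 h array of run 1 or 2, or the 24 h array of run 3 (adjusted p from 0.0531 to 0.0967), and the 48 h call without the untreated or 48 h array of run 1 or 2 (0.0846 to 0.0994). Leaving out any 1 whole run lost the 24 h call, and leaving out run 1 or run 2 lost the 48 h call. Both calls were lost with only the 2 groups compared.

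The other auxiliary enzymes did not pass. The isomerase ECI2 was between 8.21 and 8.56 on all arrays, with −0.08 ± 0.115 at 24 h (adjusted p = 0.711). Its relative ECI1 was 4.31, 5.27 and 4.66 in untreated cells, a wide spread, and had −0.19 ± 0.221 at 24 h and −0.37 at 48 h (adjusted p = 0.634 and 0.377). The dienoyl-CoA reductase DECR1 was 7.66, 6.84 and 7.32 in untreated cells, 7.48, 6.75 and 6.65 at 24 h, and 7.76, 7.07 and 7.48 at 48 h. It was lower at 24 h and higher at 48 h in all 3 runs, and neither difference passed (−0.31 ± 0.141, adjusted p = 0.194, and 0.16, adjusted p = 0.55).

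Electron transfer genes showed small differences. ETFB was 6.58, 6.19 and 6.04 in untreated cells, 6.56, 5.98 and 6.17 at 24 h, and 6.23, 5.98 and 6.17 at 48 h, with −0.03 ± 0.128 and −0.14 (adjusted p = 0.912 and 0.58). ETFA, the other subunit of the flavoprotein that accepts electrons from the dehydrogenases, had a 95% interval of −0.27 to 0.22 at 24 h and −0.28 to 0.21 at 48 h. ETFDH, which passes the electrons to ubiquinone, lay between 1.76 and 2.52 and was not tested.

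In the peroxisomal group HSD17B4, the D-bifunctional protein, was 7.36, 6.88 and 7.08 in untreated cells, 7.03, 6.50 and 6.63 at 24 h, and 7.26, 6.58 and 6.90 at 48 h. The groups overlapped, but within each run the 24 h array was 0.33, 0.38 and 0.45 below the untreated one. The difference of −0.39 ± 0.103 was just past the threshold (adjusted p = 0.0486), and at 48 h −0.19 was not (adjusted p = 0.328). Its 24 h call was lost without the block (adjusted p = 0.443) and without any 1 of the 9 arrays (0.0667 to 0.177).

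ABCD3, a peroxisomal membrane transporter of acyl-CoAs, lay just outside the threshold. It was 6.33, 5.94 and 6.87 in untreated cells, 6.15, 5.19 and 5.99 at 24 h, and 6.23, 6.002 and 6.52 at 48 h. Each run was lower at 24 h, by 0.18, 0.75 and 0.88, and the difference was −0.60 ± 0.163 (adjusted p = 0.0503; 0.365 without the block). At 48 h it was −0.13 (adjusted p = 0.713). The peroxisomal thiolase ACAA1 had 0.21 ± 0.218 at 24 h and −0.27 at 48 h (adjusted p = 0.586 and 0.52). The oxidase ACOX3 (2.09 to 2.90) and the L-bifunctional protein EHHADH (2.82 to 4.75) were below the filter, EHHADH reaching log2 4 on 2 arrays.

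Of the regulators only the receptor PPARD was tested. It was 3.92, 4.08 and 4.57 in untreated cells, 3.93, 4.07 and 4.35 at 24 h, and 4.31, 4.16 and 4.84 at 48 h. It was above its untreated value in all 3 runs at 48 h, with a difference of 0.25 ± 0.118 that did not pass (adjusted p = 0.256). PPARA, the receptor best known for switching on these genes in liver and kidney, lay between 1.69 and 2.79, and the coactivator PPARGC1A between 1.35 and 2.08, so their levels were not resolved from background.

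**Figure D3:**
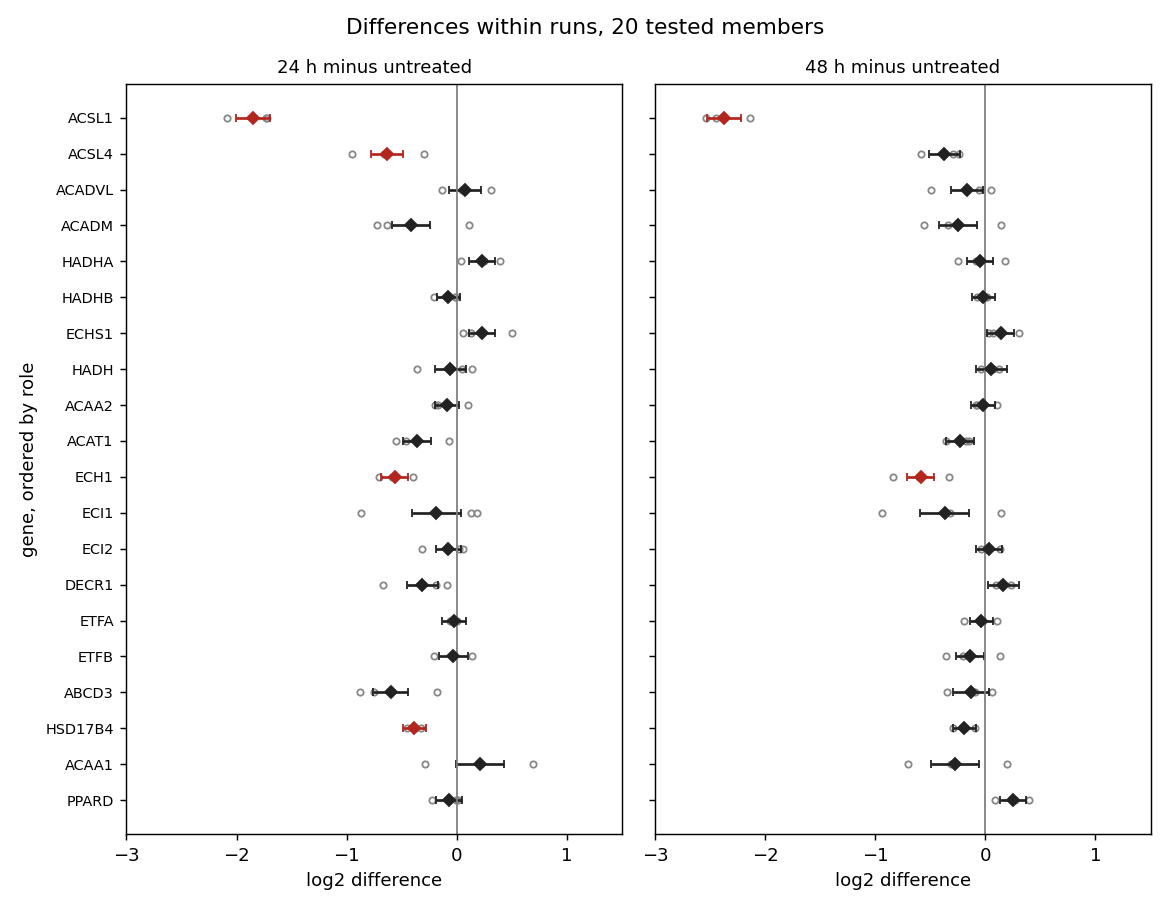
Log2 difference from untreated cells (x axis) at 24 h (left) and 48 h (right) for the 20 tested genes (y axis, ordered by role). Open circles are the 3 runs and diamonds the mean with its SE, red where the adjusted p was below 0.05: ACSL1, ACSL4, ECH1 and HSD17B4 at 24 h and ACSL1 and ECH1 at 48 h.

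Counted by run rather than by the test, 9 of the 20 genes were below their untreated value in all 3 runs at 24 h and 2 (HADHA and ECHS1) were above it, whereas 19.8% of all tested genes were lower and 24.9% higher in this way. At 48 h 5 genes were lower in all 3 runs and 3 (ECHS1, DECR1 and PPARD) higher, beside 18.2% and 23.2% of all genes. ACSL1, ACSL4, ACAT1, ECH1 and HSD17B4 were lower in every run at both times. The 24 h and 48 h comparisons share the untreated arrays. In the F test over the 3 times ACSL1 (adjusted p = 0.00012) and ECH1 (adjusted p = 0.0246) passed, against 11.2% of all genes.

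Between 24 h and 48 h, no gene of the 20 passed the threshold in limma, and 0% of the 4368 did. At an unadjusted p under 0.05 the counts were 5 of the 20 and 709 of the 4368 (16.2%). Without the block they were 1 and 219 (5.01%), and 0 genes passed after adjustment. The differences of the 20 ran from −0.52 (ACSL1) to 0.48 (DECR1). For the 16 genes past the threshold in neither comparison with untreated cells, the differences ran from −0.60 to 0.23 at 24 h and from −0.37 to 0.25 at 48 h. For 19 of the 20 genes, all but ACSL1, the 95% interval (not adjusted for the number of genes) lay within 1 log2 unit of 0 at each time. Without the block the intervals of ACSL4 at both times (−1.29 to 0.02 and −1.03 to 0.28) and of ABCD3 at 24 h (−1.27 to 0.07) reached beyond it.

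A wider list of 92 genes of fatty acid handling, of which 71 had a probe set and 30 were tested, was examined beside them. It too was chosen with earlier results of these data known, so its counts are a description rather than support for a direction. Of the 30, 6 fell at 24 h and the same 6 fell at 48 h, and 0 rose at either time, beside the shares of all genes given above (5.52% lower and 5.95% higher at 24 h, 4.81% and 5.22% at 48 h). They were PLIN2, PCCA, CAT, PHYH, MGLL and G0S2. PHYH entered the test through its untreated arrays alone, and PCCA would not have passed the filter without its untreated arrays. At an unadjusted p under 0.05, 10 of the 30 differed at each time, in either direction, against 27.7% of all genes at 24 h and 22.9% at 48 h. Without the block 4 of the 30 fell at 24 h and 5 at 48 h, against 2.17% of all genes at each time. The median log2 difference of the 30 was −0.24 at 24 h and −0.18 at 48 h.

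PLIN2, the coat protein of lipid droplets and a PPAR target gene, was 7.62, 7.85 and 8.44 in untreated cells, 5.82, 6.45 and 6.51 at 24 h, and 6.22, 6.21 and 6.63 at 48 h. The treated arrays all lay below the untreated ones, by −1.71 ± 0.147 at 24 h (adjusted p = 0.000258) and −1.62 at 48 h (adjusted p = 0.000334). Averaging in its second probe set, which was near background, reduced these to −0.83 and −0.80, still past the threshold. Of 8 PPAR target genes in the wider list 3 were tested, and PLIN2 alone passed. UCP2 (adjusted p = 0.0992 at 24 h and 0.485 at 48 h) and VLDLR (0.436 and 0.273) did not. PCCA, a subunit of propionyl-CoA carboxylase, which takes up the end product of odd-chain fatty acids, was 5.88, 5.09 and 5.18, then 3.97, 2.98 and 3.87, and then 3.77, 2.96 and 4.17. It reached log2 4 on the untreated arrays and 1 treated array, so it passed the filter through the group in which it was high. The size of its fall is not resolved below log2 4. It fell by 1.78 on the log2 scale at 24 h (adjusted p = 0.00124) and by 1.76 at 48 h (adjusted p = 0.00144). The partner subunit PCCB had −0.25 and −0.33 and did not pass (adjusted p = 0.206 and 0.125).

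Of 4 tested peroxisomal genes outside the 34, 2 fell at both times. Catalase (CAT), which removes the hydrogen peroxide made by peroxisomal oxidases, had means of 6.07, 5.21 and 5.17 at 0, 24 and 48 h and differences of −0.85 ± 0.149 and −0.90 (adjusted p = 0.00813 and 0.0069; 0.061 and 0.0508 without the block). Without the 24 h array of run 3 its 24 h value did not pass (adjusted p = 0.0509). Both its calls were lost without the whole of run 1 or of run 3 (adjusted p up to 0.0919 at 24 h and 0.0892 at 48 h). PHYH, which starts the oxidation of branched phytanic acid, went from 4.35 to 3.55 and 3.47 (adjusted p = 0.0122 and 0.00801). Like ACSL1 it passed the filter on its untreated arrays alone, and its 24 h call was lost without the 24 h array of run 3 (adjusted p = 0.0617). The 24 h call was also lost without the whole of run 3, and the 48 h call without run 2 or run 3 (adjusted p up to 0.111 and 0.0675). The import genes PEX5 and PEX19 had differences from −0.05 to 0.10 and did not pass.

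In lipid storage and lipolysis, the monoglyceride lipase MGLL fell by 0.57 on the log2 scale at 24 h (adjusted p = 0.00947) and by 0.76 at 48 h (adjusted p = 0.00254). Without the untreated array of run 1 its 24 h value did not pass (adjusted p = 0.0504), nor without any 1 whole run (up to 0.0963). Its 48 h call was lost without run 1 (adjusted p = 0.053). G0S2, an inhibitor of the lipase PNPLA2, fell by 0.57 and 0.78 (adjusted p = 0.0409 and 0.0123). Its 24 h call was lost without the block (adjusted p = 0.12). It was also lost without 7 of the arrays, all but the untreated array of run 3 and the 48 h array of run 2 (0.0596 to 0.151), and the 48 h call without the untreated or 48 h array of run 1 or 2 (0.0565 to 0.0694). The lipid droplet protein PLIN3 had the opposite sign, higher in all 3 runs at both times, with 0.35 ± 0.118 and 0.41 that did not pass (adjusted p = 0.102 and 0.0715). LPIN1, a phosphatidate phosphatase, had −0.57 ± 0.164 at 24 h and −0.27 at 48 h (adjusted p = 0.0599 and 0.388). PNPLA2 itself had −0.37 ± 0.208 and −0.40 (adjusted p = 0.29 and 0.302). ACACA, which makes the malonyl-CoA that inhibits CPT1A, had 0.28 ± 0.172 at 24 h and 0.35 at 48 h and did not pass (adjusted p = 0.338 and 0.282), nor did RXRA, the partner receptor of the PPARs, at −0.24 ± 0.15 and −0.15 (adjusted p = 0.332 and 0.609).

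**Figure D4:**
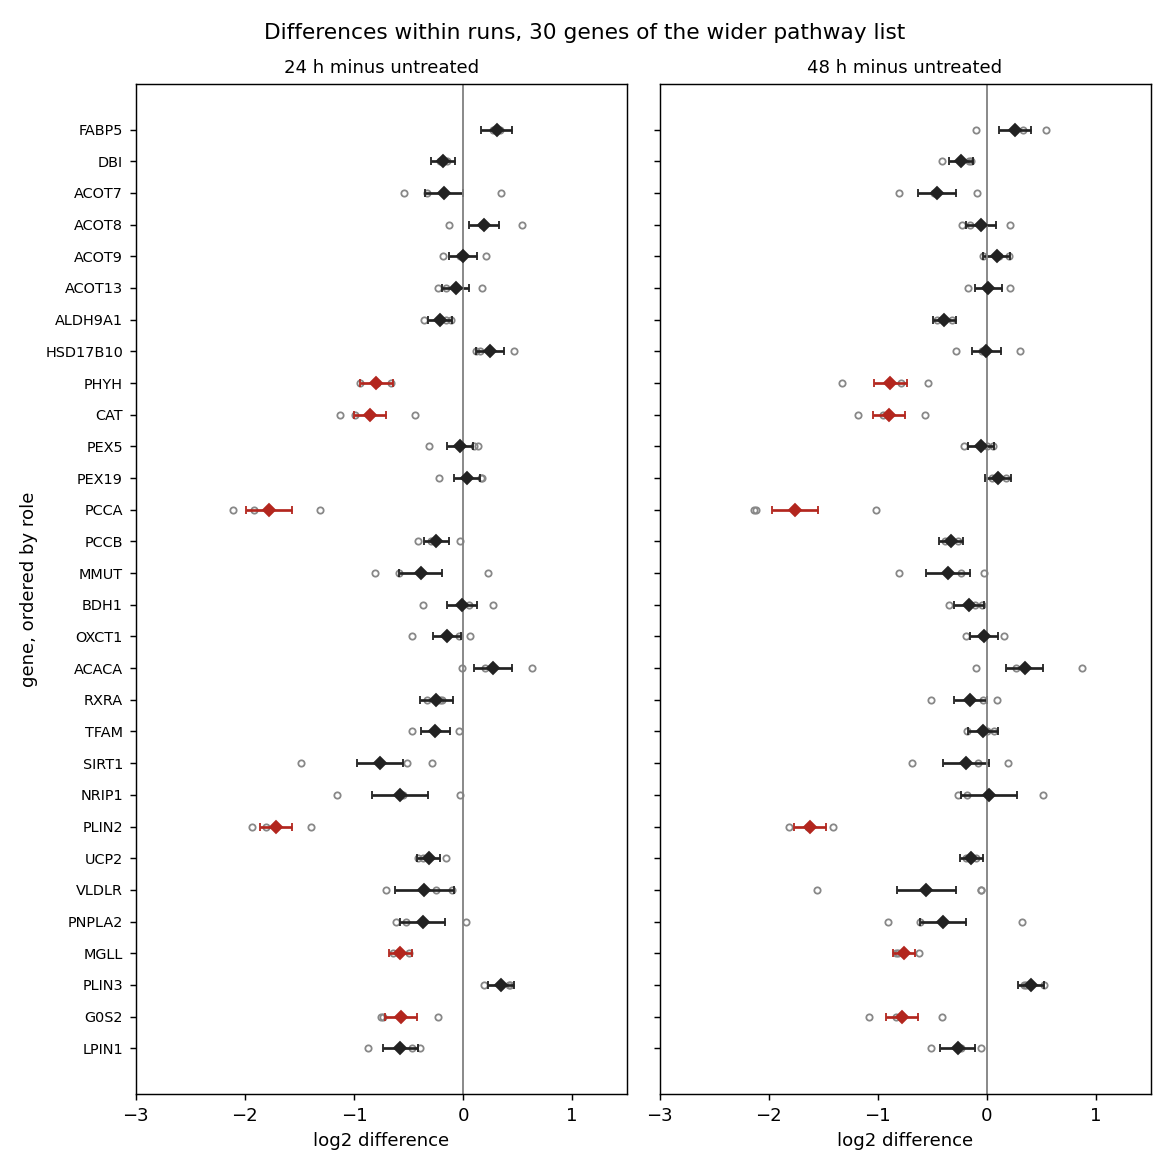
Log2 difference from untreated cells (x axis) at 24 h (left) and 48 h (right) for the 30 tested genes of the wider list (y axis, ordered by role), drawn as the mean with its SE (diamonds) and the 3 runs (open circles). The 6 genes in red passed the threshold at both times, with PLIN2 at −1.71 and −1.62 and PCCA at −1.78 and −1.76, and none in red lies to the right of 0.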

How the data were processed

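The deposited table holds 1 value per probe set and array for 22277 probe sets, on a log2 scale. Per the submitters' processing notes the authors made these log2 values with GCRMA, which corrects background by probe sequence, normalizes between arrays and summarises probes. The GCRMA version is not stated in the labels, and the log base was read from the values, which reach 12.5. No further normalization was applied. The platform annotation named 1 gene for 19070 probe sets, several for 1043 and none for 2164, and symbols were updated through a RefSeq gene table (19058 matched). No detection calls were used. Precision is limited by having 3 arrays per group.

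The lmFit and eBayes functions of limma 3.58.1 (R 4.3.3) were applied to all 9 arrays in 1 fit with replicate number as a block, and tables were made in Python 3.11.15. The block was used because time points were to be compared within runs. Deviations from group means gave correlations of 0.378 to 0.662 for pairs of arrays that share a number, and −0.526 to 0.185 for pairs from other groups that do not, so the numbers were taken to pair the arrays. The median SE was 0.139 with the block and 0.191 without. The script was tested on simulated data. Genes were named by a fixed rule: all 34, with values on every array for those past the threshold, and for the smallest F test p in each other role group, and all genes of the wider list past the threshold. Values on every array of ABCD3, DECR1, ECI1 and HADHB, and the genes of the wider list that did not pass, were added after their values were seen. The genes and lists were chosen with earlier results of these data known. Alternatives covered the block, filter, probe set choice, normalization, variance model and arrays left out.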

Additional observations from a re-analysis of the deposited data

Results flagged for a closer look

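DECR1 lay on opposite sides of its untreated value at the 2 times: in all 3 runs it was below it at 24 h and above it at 48 h. Neither difference from untreated cells passed the threshold in limma (adjusted p = 0.194 at 24 h and 0.55 at 48 h). The difference between 48 h and 24 h was 0.48 ± 0.141 on the log2 scale, and it did not pass the threshold in limma (adjusted p = 0.227 with the block, 0.781 without).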

How the results depend on the processing

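The number of tested genes of the list past the threshold was 4 at 24 h, 2 at 48 h, 2 in the F test and 0 between 48 h and 24 h. With no replicate block these were 1, 1, 1 and 0, and with only the 2 groups compared 1 at 24 h and 1 at 48 h. With the mean of all probe sets per gene, 1 passed at 48 h, since ACSL1 then fell below the filter, whereas at 24 h 4 passed although ACSL1 was not tested. The filter at log2 5 gave 5 at 24 h and 2 at 48 h. Leaving out 1 array or 1 run gave 1 to 4 at 24 h, 1 to 2 at 48 h and 1 to 4 in the F test. Over all genes, 501, 438, 491 and 0 passed at 24 h, at 48 h, in the F test and between 48 h and 24 h. With no replicate block the first 3 were 210, 194 and 180, and with only the 2 groups compared 306 passed at 24 h. Leaving out 1 array or 1 run gave 218 to 554, 190 to 486 and 194 to 560. Between 48 h and 24 h, 1 gene passed with the filter at log2 5, 1 with mean probe sets and 10 with trended and robust variance, none of them among the 34. The causes were not tested. ACSL1 kept its call and direction in all 19 alternatives that could test it, from −1.95 to −1.67 at 24 h and −2.55 to −2.26 at 48 h. HSD17B4 lost its 24 h call in 18 of 20, ECH1 in 10 and ACSL4 in 8, with the direction kept in each. PCCA and PLIN2 kept theirs at both times in all 19 and 20, although PCCA, like ACSL1, passed the filter through its untreated arrays. Probe sets near background limit what can be said of the 13 genes counted apart.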

Other observations

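Among the 4368 tested genes, 1371 (31.4%) had a value that was equal to 6 decimals on 2 or more arrays, and for 530 (12.1%) the equal values lay within a group. Of the 20 tested genes of the list, 7 had such a value (ACSL4, HADHB, HADH, ACAA2, ECI2, ETFA and ETFB) and 2 had it within a group, ACAA2 and ETFA. ACAA2 was 6.97 on the 24 h array of run 2 and on the 48 h arrays of runs 2 and 3, with an SD of 0.0163 at 48 h. CPT1A, which was below the filter, was 2.62 on all 3 arrays at 24 h. Whether this feature of the deposited values bears on the spread of these genes was not tested.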
